A study of Solanum lycopersicum with 18 samples.

Results

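Tomato transcripts with 2 or more constant m6A regions were examined in pericarp of Cnr fruit at 42 days post-anthesis (DPA), wild-type (WT) fruit at 42 DPA and WT fruit at 39 DPA, all in the Ailsa Craig background. The Colorless non-ripening (Cnr) epimutant has a DNA-hypermethylated genome and fruit that do not ripen, 42 DPA is the breaker stage of WT fruit, and 39 DPA is the mature green stage. Each group had 3 immunoprecipitated (IP) libraries and 3 input libraries, 18 in all, and each IP and input pair gave 1 list of m6A peaks. Each RNA sample came from a mix of many fruits, so the replicates measured independent pools and not single fruits. Cnr and WT were compared at equal age, at which only WT had begun to ripen, so genotype and ripening state cannot be told apart in that comparison.

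Peaks of the 9 lists that shared at least 1 bp were merged into 12119 regions. A region was called constant where every list had a peak in it, which 7836 regions met. The members were selected on these peak calls: every gene with 2 or more constant regions annotated to it. There were 448 such genes among the 8318 genes with a constant region, and they held 764 of the 7836 constant regions. Of the 448 genes, 424 had 2 constant regions, 22 had 3, 1 (Solyc02g086460) had 4 and 1 (Solyc02g070330) had 5. The number of regions and their presence in all lists were therefore fixed by the choice of members and are given as a description. The weakest member region in any list had a fold enrichment of 1.10. Just outside, 462 regions had a peak in 8 of the 9 lists, with a median enrichment of 3.23, and 93 genes had 1 constant region and 1 region in 8 lists. Those 462 regions were missing most often from WT 42 DPA replicate 3 (145 regions), Cnr replicate 3 (102) and Cnr replicate 2 (89).

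N6-methyladenosine (m6A) is placed on mRNA by a methyltransferase complex, can be removed by demethylases of the ALKBH family and is bound by reader proteins that affect the stability and translation of the transcript. In plant mRNAs it is found mainly around the stop codon and in the 3′ UTR. Since mRNA was cut into short fragments before the immunoprecipitation, regions far apart on one transcript were captured on separate fragments, and their enrichments are separate measurements. The value used throughout is the highest fold enrichment of a list's peaks in the region, as the peak caller gave it, that is the IP signal divided by the background expected from the input. The ratio of 2 regions of one transcript sets them against each other within a library.

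Solyc02g089800 encodes a nuclear matrix constituent protein 1-like protein. It is a transcript on which the study itself probed several peaks one by one, by IP-qPCR, as it also did on Solyc05g053540. The primer pairs for its peaks numbered 4, 5 and 6 are shown because they are the designed sequences that separate regions of one member transcript (all 5′ to 3′, in lower case, no letter marked). They were not placed on the regions below, for which no genome sequence was used here.
Peak 4 forward: gttacagctgcaatagtcaacttagg
Peak 4 reverse: gtccaactccgggtgcac
Peak 5 forward: gtgcttttaacttcaactcatgatcc
Peak 5 reverse: gattaagaaacgagaacaggtcg
Peak 6 forward: ctgctcatcttcaaggtcattctg
Peak 6 reverse: gccaaagattgcttaaccaaagag

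Solyc02g089800 had 2 constant regions, at chr2:52134898-52135362 over the stop codon and at chr2:52137302-52138273 in the coding sequence (build SL3.0, minus strand). The stop-codon region had enrichments of 10.2, 8.40 and 10.03 in Cnr fruit, against 5.64, 6.30 and 5.30 in WT fruit at 42 DPA, while WT fruit at 39 DPA gave 7.06, 8.02 and 8.21. The coding-sequence region had 2.24, 2.49 and 1.69 in Cnr fruit, against 2.55, 3.07 and 2.17 in WT fruit at 42 DPA, while WT fruit at 39 DPA gave 3.14, 2.90 and 2.86. All 3 Cnr values lay above all WT values at 42 DPA at the stop codon, and the groups overlapped in the coding sequence. The stop-codon region rose in Cnr (log2 change 0.73, SE 0.17, limma, BH-adjusted p = 0.00015) and the coding-sequence region had a log2 change of -0.28 (adjusted p = 0.16). The ratio of the stop-codon to the coding-sequence region was 2.02-fold higher in Cnr, with adjusted p = 0.0085 and no overlap between the groups. The stop-codon background was the lowest of the list in every WT list, and 1.265 to 1.274 times it in Cnr. Its IP fragments were 645, 486 and 575 in Cnr, against 280, 305 and 274 in WT at 42 DPA. The coding-sequence background was 1.24 to 1.64 times the lowest in Cnr, against 1.0 to 1.09 times in WT at 42 DPA. Its IP fragments overlapped (137, 185 and 101, against 126, 148 and 121), and the part of the background was not tested. Between WT fruit at 42 and 39 DPA the log2 change of the ratio was -0.23 (adjusted p = 0.27). A further region of this transcript in the coding sequence had a peak in 8 lists and one in an intron had a peak in 7, so neither was constant. The other multi-peak example of the study, Solyc05g053540 (dihydroxy-acid dehydratase), was no member, since its 5′ UTR region had no peak in Cnr replicates 1 and 3.

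Many regions counted for more than 1 gene, because regions were counted for every gene annotated to them. Of the 764 regions, 51.7% were annotated to 2 or more genes, against 10.8% of the other constant regions in genes. Accordingly, 175 of the 448 genes had no region of their own alone, 181 had 1, 88 had 2 and 4 had 3. The 448 genes held 378 distinct sets of regions, and 137 genes shared their whole set with a neighbour, such as Solyc08g068570 and Solyc08g068580. The peaks carry no strand, so a region between neighbouring genes cannot be assigned to one transcript. The 92 genes with 2 or more regions annotated to them alone, with 188 such regions, are therefore described separately and called own-region genes.

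The own-region genes carried their regions over the whole transcript. Of the 188 regions, 71 (37.8%) lay over the stop codon, 40 (21.3%) in the coding sequence, 39 (20.7%) in an intron, 21 (11.2%) in the 3′ UTR, 6 (3.19%) in the 5′ UTR and 4 (2.13%) at the transcript start. Of the 6099 single regions of genes with 1 constant region, 4838 (79.3%) lay over the stop codon and 63 (1.03%) in the coding sequence. A further region of a gene has to lie away from the first, so part of this contrast is set by the rule, and no test was made of it. The most common combinations were a coding-sequence and a stop-codon region (25 of 92 genes) and an intron and a stop-codon region (19 genes). The strongest and the next region of an own-region gene lay a median of 1798 bp apart on the genome (150 to 19402 bp). Member regions had a median width of 397 bp, against 395 bp for the other constant regions in genes.

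Position within the transcript went with the level. The median enrichment, taken as the geometric mean over the 9 lists, was 8.25 for stop-codon regions of own-region genes, 6.48 for 3′ UTR regions, 4.35 for intron regions, 2.68 for 5′ UTR regions, 2.65 for coding-sequence regions and 2.07 for transcript-start regions. The single regions of other genes had medians of 7.70 at the stop codon and 3.74 in the coding sequence. Over all member regions the median was 6.44, against 7.25 for the other constant regions in genes. These are descriptions with no test, since the peak calls that chose the members rest on the same enrichment.

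The regions of one transcript differed in level. They were ranked by mean log2 enrichment over the same 9 lists, so the sign of a gap was fixed and its size is a description. The number of lists in which the strongest region was higher rests on the same values. In the 92 own-region genes the strongest region exceeded the next by a median of 1.22 on the log2 scale (quartiles 0.51 and 1.88, range 0.01 to 3.12), and it was the higher of the pair in all 9 lists in 68 genes. In 15 genes it was higher in fewer than 7 lists, so that the order of the regions was not settled. Over all 375 distinct pairs, those with shared regions included, the median gap was 0.74, and the strongest region was higher in all 9 lists in 257 pairs. The median enrichment of the strongest region in the 92 genes was 10.1, 8.46 and 10.97 in the Cnr lists, 8.35, 8.64 and 7.01 in the WT 42 DPA lists, and 7.83, 8.18 and 8.69 in the WT 39 DPA lists. The next region had medians of 2.73, 3.37 and 2.54 in Cnr, 3.12, 3.40 and 2.63 in WT at 42 DPA, and 3.24, 2.99 and 3.46 in WT at 39 DPA. Cnr replicates 1 and 3 had the highest strongest regions, while Cnr replicate 2 lay within the range of the WT 39 DPA lists for that region.

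**Figure D1:**
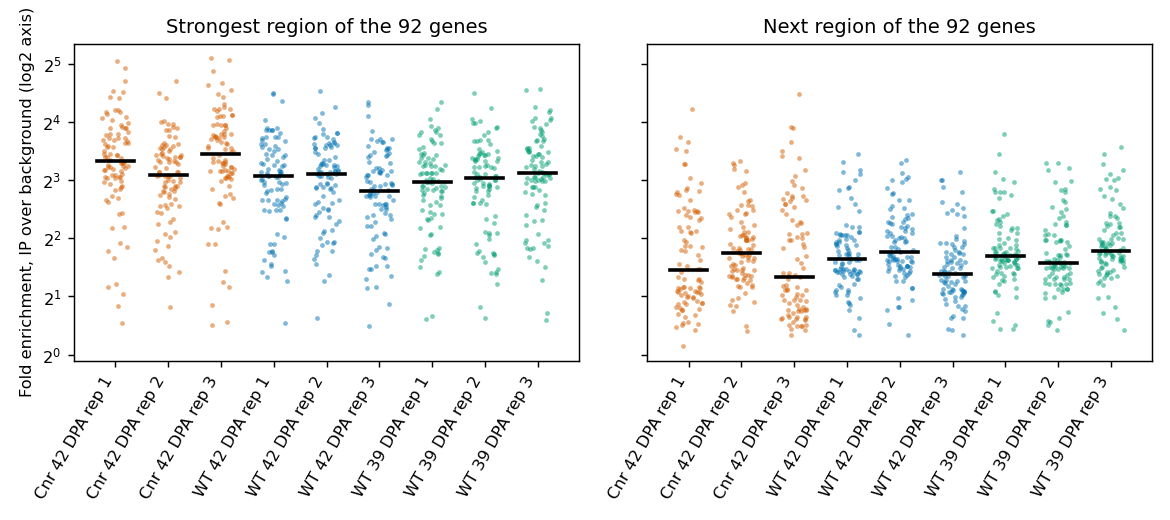
Fold enrichment (log2 axis) of the strongest and of the next region of the 92 own-region genes in each of the 9 lists; a point is a gene and a bar is the median. The strongest regions have medians of 10.1 and 10.97 in Cnr replicates 1 and 3, above every other list, and the next regions have medians between 2.54 and 3.46.

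Where the strongest region lay over the stop codon and the next in the coding sequence (28 genes), the median gap was 1.83 on the log2 scale, and the stop-codon region was the higher one in all 9 lists in 25 genes. A stop-codon region over a 5′ UTR region gave a median gap of 1.70 in 5 genes, and a 3′ UTR region over a coding-sequence region one of 1.94 in 4 genes. A stop-codon region over an intron region gave 1.17 in 12 genes. In 8 genes the intron region was the stronger one, by a median of 0.16 over the stop-codon region, and in only 3 of these did it stand higher in all 9 lists. So the order was clear for stop codon and coding sequence and often unclear where an intron region led.

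**Figure D2:**
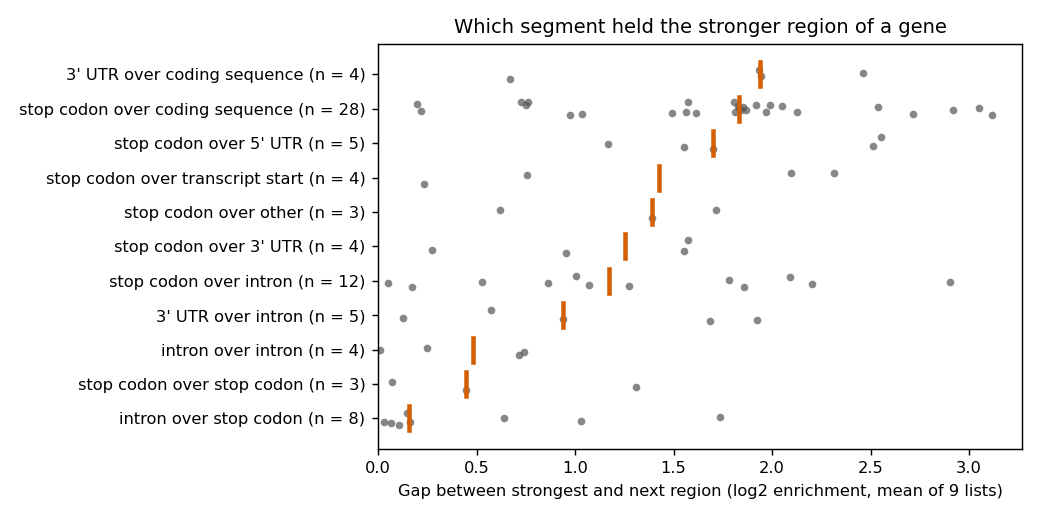
Gap in log2 enrichment (mean of the 9 lists) between the strongest and the next region of the own-region genes, by the segments of both regions, for combinations with 3 genes or more; a point is a gene and the bar is the median. Stop codon over coding sequence, with 28 genes, has a median of 1.83, and intron over stop codon, with 8 genes, a median of 0.16.

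The largest gap was that of Solyc06g019170, which encodes delta-1-pyrroline-5-carboxylate synthetase, an enzyme of proline synthesis. Its stop-codon region (chr6:17989983-17990524) had 30.4, 22.5 and 34.1 in Cnr fruit, 14.4, 13.4 and 12.7 in WT fruit at 42 DPA, and 20.4, 22.7 and 23.7 in WT fruit at 39 DPA. Its coding-sequence region (chr6:17990972-17991290) had 2.14, 2.34 and 2.65 in Cnr, 2.31, 2.53 and 2.54 in WT at 42 DPA, and 2.63, 1.42 and 3.08 in WT at 39 DPA. The gap was 3.12 on the log2 scale, and the stop-codon region was the higher one in every list. Solyc12g008750, annotated with nucleic acid binding, came next at 3.05, and its stop-codon region reached 33.1, 26.1 and 33.3 in Cnr. Solyc02g094490, an ATPase E1-E2 type family protein, and its neighbour Solyc02g094500 shared a region pair with a gap of 2.97, and Solyc05g056340 had 2.92. In all of these the weaker region stayed near the low end, between 1.39 and 3.56 in every list. At the other end, Solyc11g010240, annotated with nucleosome and DNA binding, had a gap of 0.01, with 3.02, 2.76 and 3.28 in Cnr at the stop codon and 2.79, 3.02 and 2.54 in an intron. Solyc03g117480, a vacuolar proton-pumping pyrophosphatase, had 2 intron regions of nearly equal level, at 6.84, 5.63 and 7.13 and at 5.79, 5.82 and 7.49 in Cnr.

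The genes with the most regions differed in kind. Solyc02g070330, annotated as 40S ribosomal protein S4, had 1 stop-codon region and 4 intron regions. The stop-codon region (chr2:40683191-40683578) had 10.7, 8.92 and 11.8 in Cnr, against 8.54, 8.62 and 7.08 in WT at 42 DPA, with a log2 change of 0.37 (adjusted p = 0.06). All 4 intron regions rose in Cnr, by 0.65 to 0.85 on the log2 scale, with no overlap between the groups. In 3 of the 4 the background was lower in Cnr, at 2.20 to 2.83, 1.09 to 1.17 and 3.81 to 3.85 times the lowest of the list, against 3.87 to 4.43, 1.57 to 2.07 and 6.55 to 6.69 times in WT at 42 DPA. Their IP fragments overlapped between the groups (932, 751 and 926 in Cnr, against 1017, 1123 and 809, in the last). Solyc02g086460, an A-kinase anchor-like protein, had 4 coding-sequence regions, each shared with at least 1 other gene and each under 4-fold in every list. Of these, 3 had negative log2 changes in Cnr (-0.35, -0.56 and -0.55) and 1 a positive one (0.33), none past the fold minimum. The background under these 4 regions was 1.2 to 4.0 times the lowest background of the list in Cnr, against 5.6 to 12 times in WT at 42 DPA, and its part in the changes was not tested. In Solyc01g090480, an RNA-binding protein with a KH domain, 1 of 3 regions rose in Cnr (log2 change 0.85), and in Solyc01g096090, a transmembrane protein, only the intron region did so (0.66), beside a background of 3.40 to 3.47 times the lowest in Cnr against 5.24 to 5.25 times in WT at 42 DPA. Solyc01g068450 had 2 regions that rose in WT at 42 DPA over 39 DPA (0.65 and 0.74), and another with a log2 change of -0.02. The background of the first 2 was at the floor of the list at 42 DPA, against 3.8 to 4.1 and 1.6 times it at 39 DPA, and its part was not tested. The lowest strongest region belonged to Solyc04g071610, annotated with response to stress, with 1.45, 1.77 and 1.42 in Cnr and a background 58 to 60 times the lowest of the list. The highest weaker region belonged to Solyc03g111580, with 16.9, 12.7 and 18.4 in Cnr.

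To ask whether the regions of one transcript moved together, each constant region was tested between Cnr and WT fruit at 42 DPA. A region was called at a fold of 1.5 or more and p under 0.05, as the study did for its own comparison. Of the 764 member regions, 186 rose in Cnr (24.3%) and 17 fell (2.23%). Over all 8007 regions tested, 25.2% rose and 1.91% fell, so the members stood near the background. The groups did not overlap in 353 member regions that were higher and 44 that were lower in Cnr, where all regions gave 48.2% higher and 5.08% lower. The median log2 change was 0.33 in member regions, 0.15 in the 188 own regions and 0.36 in all regions, so the medians lay above 0. With each list centred on its median, 47 member regions were called higher and 90 lower, and of the 188 own regions 8 were called higher and 45 lower, against 37 and 6 uncentred. The same centring gave 434 higher and 635 lower among all 8007 regions, so the balance turned there too. Without Cnr replicate 2, 30 member regions were called lower, and without WT 42 DPA replicate 3 there were 27. The tests shared 1 estimate of the spread (SE 0.17 on the log2 scale), so that every region past 1.5-fold was called.

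By transcript, 237 of the 448 genes had no region called in Cnr, 164 had some but not all of their regions higher and 28 had all regions higher. A further 16 had some lower, 1 had all lower and 2 had regions in opposite directions. The last 2, Solyc08g068570 and Solyc08g068580, share the same regions, and every gene of a shared set was counted. With 24.3% of member regions called higher and 2.23% lower, some genes would have several regions called even if regions moved independently. No test was made of whether regions of one transcript moved together. Among the 92 own-region genes, counted on their own regions, these numbers were 54, 29, 4, 4, 1 and 0. The 4 with every own region higher were Solyc01g094570, annotated with lipid catabolism, Solyc02g070330, Solyc03g083200, described as an En/Spm-like transposon, and Solyc12g007280, a casein kinase family protein. In Solyc03g083200 the intron region had 9.48, 6.38 and 8.11 in Cnr, against 2.41, 2.59 and 2.89 in WT at 42 DPA. Its stop-codon region had 7.03, 5.36 and 7.25 in Cnr, against 2.83, 3.40 and 2.60 in WT at 42 DPA. Both rose by more than 1 on the log2 scale (1.59 and 1.15). The gene with both regions lower was Solyc09g098510, annotated as a structural constituent of the cell wall. Its coding-sequence region had 2.07, 2.89 and 1.80 in Cnr, against 3.75, 4.36 and 2.79 in WT at 42 DPA, and its intron region had 1.87, 2.93 and 1.48 in Cnr, against 3.48, 4.24 and 2.82. Cnr replicate 2 overlapped WT replicate 3 in both.

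The ratio between regions of one transcript was then tested in the same way, with the strongest region over each other region of the gene. The strongest was set by the mean of the 6 lists compared, which gives no side of the comparison more weight. Of 396 member pairs, 90 ratios rose in Cnr (22.7%) and 37 fell (9.34%). The background was 22.7% and 9.16% over 415 pairs, but 396 of those were the members themselves. Of the 90 higher ratios, 80 had an adjusted p under 0.05, as did all 37 lower ones. The groups did not overlap in 131 higher and 84 lower member ratios, where all pairs gave 33.5% and 20.7%.

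In own-region genes the ratio rose more often than it fell: 39 of 92 pairs (42.4%) were higher in Cnr and 4 (4.35%) lower, with a median log2 change of 0.57. Of all 415 pairs, 22.7% were called higher and 9.16% lower. Of the 39 higher own pairs, 30 had an adjusted p under 0.05, and 26 had no overlap between the groups. By 2 other measures the own pairs stood near all pairs. Called or not, 34.8% of own pairs were higher with no overlap, against 33.5% of all pairs. An adjusted p under 0.05 was reached by 45.7% of own pairs and 45.5% of all pairs. With the median ratio of all pairs in each list subtracted, 29 own pairs were called higher and 7 lower, against 61 and 57 of all 415 pairs. The number of own pairs called higher was 24 without WT 42 DPA replicate 2 and 55 without Cnr replicate 2, so single libraries moved it. The median log2 gap between the strongest and the next region was 1.57, 1.12 and 1.70 in the Cnr lists. It was 1.27, 1.08 and 1.32 in WT at 42 DPA, and 1.13, 1.34 and 1.29 in WT at 39 DPA. Cnr replicate 2 thus lay within the range of the WT lists. Among the 39 higher ratios the strongest region itself was called higher in 19 and the other region lower in 2, while in 18 neither passed alone. The median log2 changes were 0.55 for the strongest and -0.29 for the other region, and in 35 of 39 pairs these had opposite signs. Choosing pairs by a higher ratio favours such signs, so these values describe the called pairs and are no separate result.

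**Figure D3:**
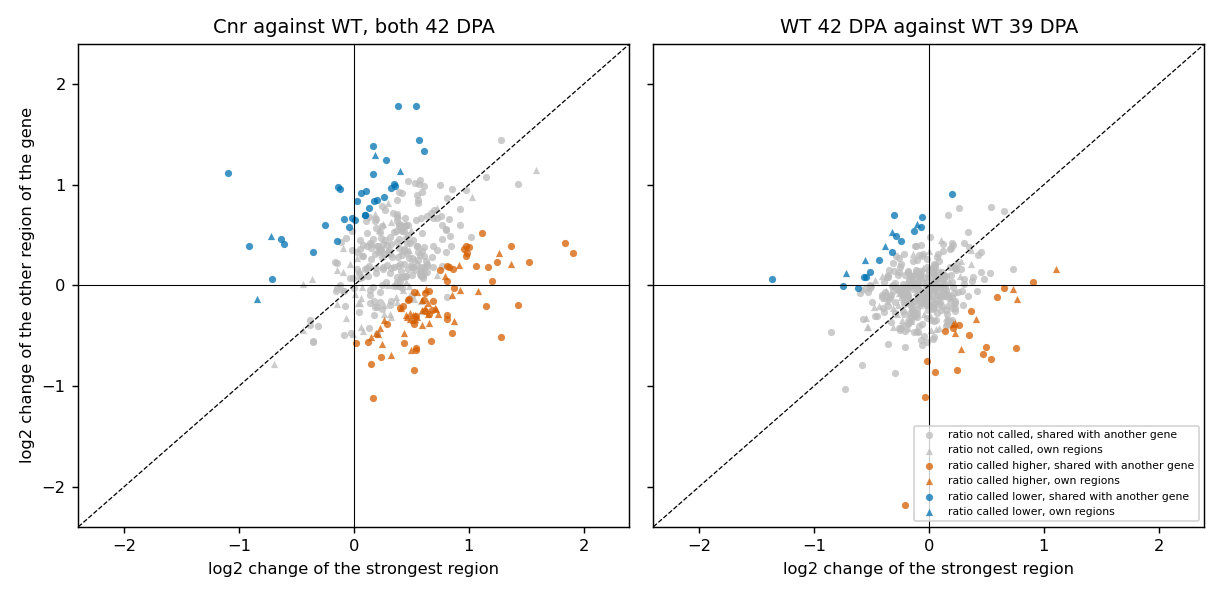
Log2 change of the strongest region (horizontal) and of another region of the same gene (vertical), for Cnr against WT at 42 DPA and for WT at 42 against 39 DPA; triangles are pairs of regions annotated to the gene alone, circles are pairs with a region shared with another gene, and the dashed line marks equal change. In Cnr, 39 of the own pairs and 90 of all 396 member pairs are called higher and lie below the line, and 37 called lower lie above it, against 25 and 20 member pairs between the WT stages.

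The change of the ratio went with the gap, here taken from the WT 39 DPA lists, which had no part in the Cnr comparison. Own-region pairs with a gap under 0.5 (log2) had a median log2 change of the ratio of -0.0038 (27 pairs), those from 0.5 to 1 had 0.14 (15 pairs), those from 1 to 2 had 0.57 (38 pairs) and those of 2 or more had 0.62 (12 pairs). The ratio was above that of WT in 13 of 27, 9 of 15, 30 of 38 and 12 of 12 pairs. Over all 375 pairs the same bins gave medians of 0.05, 0.19, 0.28 and 0.52. These are pairs of the same 9 lists and not independent samples, so no test was made.

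A stop-codon region over a coding-sequence region was the most common order among the own-region genes. In these 28 genes the stop-codon region was called higher in Cnr in 12 and lower in 0, and the coding-sequence region was called higher in 0 and lower in 1. Among all 8007 regions tested, 25.2% were called higher and 1.91% lower. The change was above 0 in 27 stop-codon regions and below 0 in 25 coding-sequence regions, with median log2 changes of 0.53 and -0.29. Over all 8007 regions the median log2 change was 0.36. The 28 genes were picked by a mean over the 9 lists, which includes the Cnr lists. Median enrichments of the stop-codon regions were 12.6, 10.4 and 13.3 in Cnr, against 8.42, 8.66 and 7.39 in WT at 42 DPA, and 9.08, 8.50 and 9.45 in WT at 39 DPA. Those of the coding-sequence regions were 2.12, 2.76 and 1.85 in Cnr, against 2.73, 3.08 and 2.35 in WT at 42 DPA, and 3.06, 2.53 and 3.25 in WT at 39 DPA. All Cnr medians stood above the WT medians at the stop codon, and Cnr replicate 2 overlapped WT in the coding sequence. The ratio was called higher in Cnr in 20 of 28 genes and lower in 0, and 14 of the 28 ratios were higher with no overlap. Among all 415 pairs tested, 22.7% were called higher and 9.16% lower, and 33.5% were higher with no overlap. The count of 20 called higher was 26 without Cnr replicate 2, 13 without Cnr replicate 1, 12 without Cnr replicate 3, 13 without WT replicate 1 and 10 without WT replicate 2. The median background over the lowest of the list was about equal at the stop codon (1.71 to 1.72 in Cnr, 1.72 to 1.91 in WT at 42 DPA) and lower in Cnr in the coding sequence (2.06 to 2.14, against 2.47 to 2.58).

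Since enrichment is a quotient, a ratio can also move through the background. For the 50 own pairs with both backgrounds above the floor, the lowest background of a list, the median size of the log2 change was 0.13 for the background ratio, 0.61 for the IP ratio and 0.62 for the enrichment ratio. Of 22 such pairs called higher, 21 had a background ratio that moved by less than 1.5-fold. Between the WT stages the 49 such pairs had median sizes of 0.16 for the background ratio, 0.11 for the IP ratio and 0.16 for the enrichment ratio, and of the 2 called higher and 1 called lower, 1 had a background ratio that moved by less than 1.5-fold. On the floor the background is fixed and enrichment follows the IP signal alone, so the transcript's own level is not divided out. This held in all 9 lists for 23.2% of member regions and 18.1% of the 188 own regions. Only 55.1% of member regions and 65.4% of own regions were above the floor in all 9 lists. The remaining regions were on the floor in some lists, where the same limit holds.

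The 5 largest falls of a ratio in Cnr, among called pairs with no overlap, each involved a region shared with a neighbouring gene. Amounts by which a region or ratio rose or fell are log2 values here and below, unless given as a fold. Solyc08g068570, annotated with tocopherol cyclase activity, and its neighbour Solyc08g068580 shared 2 regions that moved in opposite directions. The region at the stop codon of Solyc08g068570 (chr8:57777986-57778304) had 4.90, 3.33 and 4.78 in Cnr, against 9.31, 9.53 and 8.64 in WT at 42 DPA, while WT at 39 DPA gave 5.98, 6.69 and 6.75. The region in its 3′ UTR (chr8:57778537-57778839), which is the stop-codon region of Solyc08g068580, had 8.07, 6.01 and 8.90 in Cnr, against 3.27, 3.48 and 3.68 in WT at 42 DPA, while WT at 39 DPA gave 5.11, 5.25 and 5.58. Both changed with no overlap (log2 changes -1.10 and 1.12). The ratio fell by 2.22 on the log2 scale, to 0.21 times that of WT at 42 DPA (adjusted p = 8.9e-05). Both backgrounds lay on the floor in all 9 lists, and the 2 regions may belong to 2 transcripts, whose levels were not measured here. In Solyc01g087600 and Solyc01g087610 the ratio fell by 1.40 on the log2 scale, to 0.38 times that of WT at 42 DPA. The region that changed had 15.9, 10.5 and 18.2 in Cnr, against 4.65, 3.87 and 4.09 in WT at 42 DPA. Solyc07g042930, annotated with serine endopeptidase activity, had a stop-codon region of its own at 3.09, 2.66 and 2.54 in Cnr, against 5.66, 6.01 and 4.11 in WT at 42 DPA, and its ratio fell by 1.31. In Solyc01g096910, a VPS36 protein of vacuolar sorting, the weaker 3′ UTR region rose by 1.39 and the ratio fell by 1.22. The remaining one, Solyc03g082395, fell by 1.24 and is described with the WT stages. Both regions of Solyc07g042930 and of Solyc01g096910 also had their background on the floor in all 9 lists. The changed region of Solyc01g087600 was on the floor in 8 lists.

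The largest rise of a single member region in Cnr was in Solyc07g053960, a ubiquitin-conjugating enzyme. Its 3′ UTR region (chr7:62488852-62489463) had 27.4, 20.8 and 31.0 in Cnr, against 7.32, 7.37 and 6.13 in WT at 42 DPA, while WT at 39 DPA gave 15.4, 18.4 and 20.0. Its stop-codon region had 7.66, 6.43 and 7.32 in Cnr, against 6.01, 6.0 and 5.13 in WT at 42 DPA, and 5.16, 5.51 and 5.65 in WT at 39 DPA. The 3′ UTR region rose by 1.91 (SE 0.17, adjusted p = 5.6e-25) and the stop-codon region had a log2 change of 0.32 (adjusted p = 0.11). The ratio was 3.01-fold higher in Cnr (adjusted p = 0.00046). The background of the 3′ UTR region was on the floor in all Cnr and WT 42 DPA lists, so the transcript's own level was not divided out there. In Solyc11g008280, annotated with serine carboxypeptidase activity, the stop-codon region had 22.0, 15.1 and 25.7 in Cnr, against 6.22, 5.35 and 5.63 in WT at 42 DPA, with a ratio 2.68-fold higher. Solyc02g069515 and its neighbour Solyc02g069520 had a ratio 3.47-fold higher, and Solyc06g054400, annotated with GTPase activity, and Solyc06g054410 one 3.08-fold higher. The latter is the 3′ UTR over the coding-sequence region of Solyc06g054400. The stop-codon region of Solyc06g054400 also rose in Cnr (log2 change 1.0, no overlap). The ratio of the 3′ UTR to that stop-codon region was 1.35-fold higher and was not called. In Solyc01g096490, a protein kinase and ubiquitin ligase, the weaker 3′ UTR region fell by 0.84 on the log2 scale and the ratio was 2.57-fold higher. Solyc04g081320, annotated as the chloroplastic protein disulfide isomerase LQY1, had the largest fall of a single region, an intron region of its own at 4.40, 3.22 and 4.56 in Cnr, against 9.69, 8.54 and 7.98 in WT at 42 DPA (log2 change -1.12). Its other intron region had a log2 change of 0.17. The called regions of Solyc02g069515, Solyc06g054400, Solyc01g096490 and Solyc04g081320 likewise had their background on the floor in every Cnr and WT 42 DPA list.

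Between WT fruit at 42 and 39 DPA few regions moved. Of the 764 member regions, 15 rose at 42 DPA (1.96%) and 23 fell (3.01%), where 1.55% of 8533 regions tested rose and 3.0% fell. Without overlap, all regions gave 10% higher and 18% lower. The number that fell was 45 without WT 42 DPA replicate 2 and 35 without WT 39 DPA replicate 1, and the number that rose was 23 without WT 42 DPA replicate 3. No region was called in 404 of the 448 genes, 16 had some regions higher, 25 had some lower, 2 had all lower and 1 had regions in opposite directions. Of 396 member pairs, 25 ratios rose and 20 fell, where 5.19% and 4.32% of 694 pairs tested did so and 18.3% and 17.4% did not overlap. Among 94 own pairs, 8 rose and 5 fell, and among the stop-codon and coding-sequence pairs, 1 of 27 rose and 1 fell. This comparison and that of Cnr share the WT 42 DPA lists, so a region high or low in those lists moves in both.

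The largest fall of a member region between the stages was in Solyc03g082395, an RNA-binding protein. The region that fell (chr3:53779803-53780326, annotated to 4 genes) began in the last intron of this gene, with its centre and end labelled intergenic. That region had 3.88, 4.09 and 3.72 in WT at 42 DPA, against 15.8, 19.5 and 17.9 at 39 DPA, while Cnr gave 13.9, 12.2 and 14.2. The intron region of the gene had 17.1, 16.5 and 16.6 in WT at 42 DPA, against 17.3, 18.9 and 22.1 at 39 DPA, while Cnr gave 26.7, 18.2 and 29.8. The first fell by 2.18 on the log2 scale at 42 DPA (adjusted p = 2.5e-51), and the ratio was 3.93-fold higher (adjusted p = 4.7e-07). The region tests between the WT stages also shared 1 estimate of the spread (SE 0.14). The p of a region therefore follows the size of its change and not its own spread. The background of the first was 5.9 to 6.2 times the lowest in WT at 42 DPA, against 1.6 to 1.7 times at 39 DPA, and its part in the fall was not tested. In Solyc07g053960 the 3′ UTR region fell by 1.37 and the ratio by 1.43 on the log2 scale. That put the ratio at 42 DPA at 0.37 times its value at 39 DPA. Solyc06g060100, a mannose-6-phosphate isomerase, was the only gene with regions called in opposite directions between the stages. Its 3′ UTR region had 9.68, 10.3 and 8.54 in WT at 42 DPA, against 5.42, 5.39 and 6.08 at 39 DPA, and its stop-codon region had 2.95, 3.29 and 2.62, against 4.51, 4.08 and 5.01. The log2 changes were 0.76 and -0.62, and the ratio was 2.59-fold higher. The background of that 3′ UTR region was 2.2 times the lowest at 42 DPA, against 5.2 to 5.6 times at 39 DPA, and its part was not tested.

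**Figure D4:**
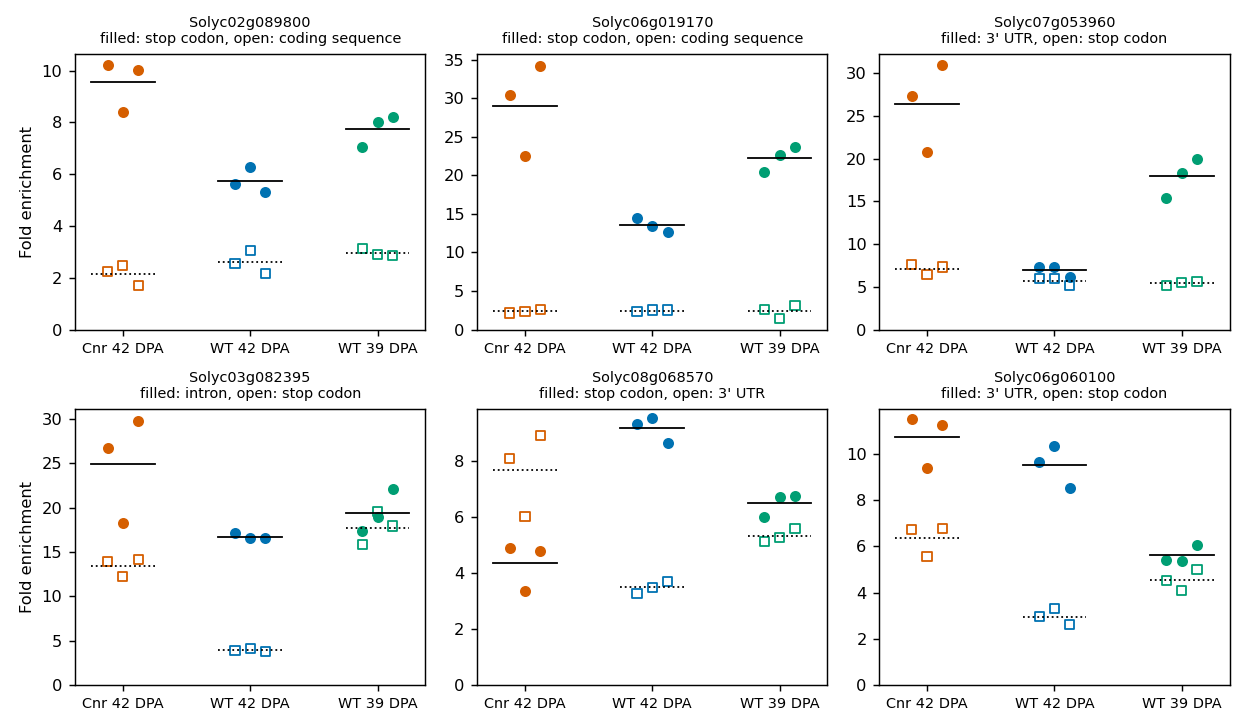
Fold enrichment of the regions of 6 genes in Cnr at 42 DPA, WT at 42 DPA and WT at 39 DPA; filled circles are the strongest region by the mean of the 9 lists, open squares the next, a point is a list and the line is the mean of 3. In Solyc08g068570 the 2 regions change places between Cnr and WT at 42 DPA, and in Solyc07g053960 the 3′ UTR region lies between 20.8 and 31.0 in Cnr, against 6.13 to 7.37 in WT at 42 DPA.

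Other genes that moved between the stages included both directions. Solyc02g071200, a C-terminal processing protease, had a ratio 2.41-fold higher at 42 DPA, with the 3′ UTR region at 3.41, 3.27 and 3.10, against 5.93, 5.23 and 5.09 at 39 DPA. Solyc03g115530, annotated with endonuclease activity, had one 2.22-fold higher, and Solyc08g068570 with Solyc08g068580 one 2.17-fold higher. The ratio fell by 1.0 on the log2 scale in Solyc01g008800, annotated with signal transduction. The background of its 3′ UTR region was on the floor at 42 DPA, against 2.84 to 4.89 times it at 39 DPA, with 139 to 166 IP fragments at 42 DPA against 351 to 360, so its enrichment rose with fewer IP fragments. The log2 ratio also fell by 0.85 in Solyc02g091580, annotated with metalloendopeptidase activity, and by 0.81 in Solyc02g088780, a ribosomal protein by its annotation. It fell by 0.84 in Solyc06g019170 and by 0.49 without WT 39 DPA replicate 2, where it did not reach 1.5-fold. The background of its stop-codon region was 3.51 to 3.66 times the floor at 42 DPA, against 1.59 to 1.63 times at 39 DPA and 1.06 to 1.09 times in Cnr, and its part was not tested. The stop-codon region of Solyc04g048900, a calreticulin, rose by 1.11 at 42 DPA, with 3.41, 4.25 and 3.17, against 1.59, 1.76 and 1.64 at 39 DPA, beside a background of 1.9 times the lowest at 42 DPA and 9.9 to 10 times at 39 DPA, whose part was not tested. Intron regions moved in Solyc11g010120, annotated with peroxidase activity (log2 change -1.11), and in Solyc11g013460, a dephospho-CoA kinase (0.91). The gene pair with all regions lower, Solyc11g066620, an aspartyl protease family protein, and Solyc11g066630, fell by 0.73 and 1.03.

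Of 31 ripening genes, 13 had a constant region and 1 was a member: Solyc07g055920, entered in that list as TAGL1, a MADS-box transcription factor. None of 8 ALKBH genes was a member, and 3 of them had a constant region. The stop-codon region of Solyc07g055920 (chr7:63981443-63981777) had 15.1, 12.2 and 17.1 in Cnr, against 10.2, 11.7 and 8.80 in WT at 42 DPA, while WT at 39 DPA gave 10.8, 12.4 and 11.7. Its coding-sequence region had 1.39, 1.79 and 1.54 in Cnr, against 1.88, 1.92 and 2.12 in WT at 42 DPA, while WT at 39 DPA gave 1.99, 1.95 and 1.99. Neither region passed alone (log2 changes 0.53 and -0.34), but neither overlapped between Cnr and WT at 42 DPA, and the ratio was 1.82-fold higher in Cnr (SE 0.23 on the log2 scale, adjusted p = 0.021). The background of the coding-sequence region was 5.3 to 6.7 times the lowest in Cnr, against 11 to 12 times in WT at 42 DPA. That of the stop-codon region was 2.47 to 2.5 times the lowest in Cnr, against 4.67 to 4.75 times in WT at 42 DPA, with 1364 to 1918 IP fragments in Cnr against 2122 to 2605, so its higher values in Cnr came with fewer IP fragments and a lower background.

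The lists held between 9246 and 10407 peaks each. Member regions had a median enrichment of 8.06, 6.59 and 8.51 in the Cnr lists, 5.95, 6.14 and 5.10 in the WT 42 DPA lists, and 5.81, 5.78 and 6.41 in the WT 39 DPA lists, so Cnr replicate 2 stood apart from the other Cnr lists and WT 42 DPA replicate 3 was the lowest. The median number of IP fragments under a summit, recovered from the enrichment and its p, was 392 to 500 per list. Read totals are not in the lists used here. The lists hold peaks and no transcript levels, so the tissue was not checked against marker genes, and in whole pericarp a change in the cells present and a change within cells cannot be told apart.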

How the data were processed

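Pericarp mRNA was fragmented, immunoprecipitated with an anti-m6A antibody and sequenced beside its input (HiSeq X, paired ends). The authors trimmed and filtered reads (FastQC 0.11.7, Cutadapt 1.16, Trimmomatic 0.30), aligned them with BWA (version given as 0.30) to tomato build SL3.0 with the ITAG3.2 annotation, called peaks in each IP against its input with MACS and annotated them with PeakAnnotator. The deposited lists hold fold enrichment (a ratio of IP to background), pileup signal, and −log10 p and q values per peak, and none holds columns of the authors' comparisons.

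Peaks sharing 1 bp were merged, and the highest fold enrichment per region and list was log2-transformed without a pseudocount. Every tested region had a peak in all lists compared. Segments came from the labels of a peak's beginning, centre and end. A region with its centre in an intron was an intron region. A stop-codon region began upstream of the 3′ UTR within the gene and ended in the 3′ UTR or in intergenic sequence. IP fragments and background were solved from the enrichment and p of 92196 of 92197 summits, and 99.861% came out whole within 0.1 fragments. The lowest, most common background of a list is its floor (44.6 to 51.1 fragments). Tests were two-sided limma 3.58.1 (R 4.3.3) fits on the 6 lists compared, called at 1.5-fold and unadjusted p under 0.05 as in the study's criterion, with Benjamini-Hochberg adjustment over all regions or all pairs tested. The pair tests used a moderated spread of each pair (SE 0.0927 to 0.519 on the log2 scale for Cnr against WT). Scripts were tested on simulated data. Other steps used Python 3.11.15, pandas 2.3.3, numpy 2.4.6, scipy 1.17.1 and matplotlib 3.10.9.

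Samples of a replicate number deviated together (r of 0.19, 0.45 and 0.34 between Cnr and WT at 42 DPA, and 0.28, 0.37 and 0.13 between the WT stages, over 7836 regions), so the numbers were treated as pairing the lists in an alternative with the replicate number as a block. Replicates were independent pools per the study's methods.

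Genes were named from descriptions in the study's tables (122 of 448 members) or from Gene Ontology terms in the lists (317), and otherwise by identifier. The named genes were chosen by rule: the study's examples, the 5 genes with the most regions, up to 5 pairs with the largest changes of the ratio and up to 3 regions with the largest changes per direction and comparison, the 5 largest and 5 smallest gaps, genes with opposite calls, members among listed ripening and ALKBH genes, and the weakest and strongest of their kind. Genes with all regions called in 1 direction were added after their values were seen. The members, lists and tests were chosen with earlier results of these data known.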

Additional observations from a re-analysis of the deposited data

How the results depend on the processing

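Counting only regions annotated to a single gene left 92 transcripts in place of 448. A minimum enrichment of 2 in every list left 388, a −log10 q of at least 10 left 416, and a merge at 100 bp left 448. Leaving out 1 list gave 448 to 493 transcripts. With each list centred on its median, member regions in Cnr were called higher in 47 and lower in 90, pairs lower in 56 (centring the ratios sets their median near 0), own-region pairs lower in 7, and WT regions lower at 42 DPA in 15. Among all features, the same centring in Cnr gave 434 of 8007 regions higher, 635 lower and 57 of 415 pairs lower. Between the WT stages it gave 176 of 8533 regions lower. With an adjusted p under 0.05 and no minimum fold, Cnr gave 379 regions (335 higher, 44 lower) and 62 lower pairs, and the WT stages gave 132 regions (44 higher, 88 lower) and 100 pairs (52 higher, 48 lower). With the replicate block, Cnr gave 186 regions higher and 17 lower and 100 pairs higher and 37 lower, 46 own-region pairs were higher, 23 stop-codon over coding-sequence pairs were higher, and the WT stages gave 25 pairs higher and 20 lower; the block changed the call of none of 84 regions and 47 pairs of the genes named by rule, in either comparison. Leaving out 1 list, Cnr regions numbered 152 to 295 (134 to 265 higher, 14 to 30 lower), Cnr pairs 99 to 156 (67 to 117 higher, 32 to 39 lower), WT regions 35 to 61 (13 to 23 higher, 16 to 45 lower), WT pairs 45 to 52 (27 to 30 higher, 18 to 22 lower), own-region Cnr pairs 24 to 55 higher and 4 to 7 lower, and stop-codon over coding-sequence pairs 10 to 26 higher. For the 32 largest changes of regions and pairs, 191 of 192 values without 1 list held and 1 was weaker, the Solyc06g019170 ratio between the WT stages. The causes of the other differences were not tested. The median gap over all pairs was 0.74 by the highest or the mean summit and 0.85 by IP fragments. The precision of every test is limited by 3 lists a group, and read totals per library were not used here.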
